A study of Mus musculus with 28 samples.

Results

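The ATP-binding cassette (ABC) transporter genes were examined across organoids, sorted liver cells, damaged livers and adult tissues of C57BL/6 mice. Members were the array probes whose printed gene name starts with Abca to Abcg followed by a digit, which gave 97 probes for 50 genes. Of these genes, 40 were above background on enough arrays to be tested, among 21047 tested genes in all. The 28 arrays each carried a sample in the Cy3 channel and a commercial mouse reference RNA in the Cy5 channel. The organoids had been grown from single isolated Lgr5 cells. They comprised 1 sample kept in differentiation medium (DM) and 2 kept in expansion medium (EM). Freshly sorted cells comprised 2 samples of Lgr5-sorted cells taken 6 days after carbon tetrachloride (CCl4), a hepatotoxin, and 2 samples of ductal cells sorted with the antibody Mic1-1c3. Damaged livers comprised 2 samples 3 days after CCl4 and 2 samples 13 days after CCl4. Labelled as from wild-type mice were 2 adult livers, 2 pancreases and 3 muscle samples. So were 3 samples each of brown adipose tissue (BAT) and white adipose tissue (WAT). There were also 2 hepatocyte fractions and 2 whole livers, whose labels name no CCl4 treatment and which are taken as undamaged here. The labels call the samples of a group biological replicates without saying whether each came from its own animal, so p-values measure the spread between these samples.

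ABC transporters are membrane proteins that use ATP to move substrates across a membrane, and in hepatocytes a set of them pumps bile salts, phospholipid, cholesterol and conjugated drugs across the canalicular membrane into bile. Other members export organic anions across the basolateral membrane, load lipoproteins with cholesterol, carry fatty acids into peroxisomes or act in haem synthesis at mitochondria. The subfamilies Abce and Abcf carry the ATP-binding domains without a membrane domain and act at the ribosome.

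A level here is the log2 ratio of the sample to the reference RNA for a gene's brightest probe, so a level of 0 means equal signal and levels of different genes are not comparable. Changes between groups came from limma, a linear model for array data, with Benjamini-Hochberg adjustment over all 21047 genes. A gene was called where the adjusted p was below 0.05 and the change was at least 1 on the log2 scale. Where a gene was not well above background on any array of the lower group, the difference is given as "at least N-fold". That is the smaller of 2 folds, the fold between the mean ratios and the fold in the Cy3 channel, where the mean of the higher group was set against the detection floor. The share of probes above background ran between 17.7% and 69.1% per array, and the number of arrays limits the precision. The lowest share was that of pancreas 1, at 17.7%, against 44.0% for pancreas 2. Both Lgr5-sorted arrays were low as well, at 21.5% and 18.5%, with a correlation of 0.564 between their ratios. Replicates of the other groups correlated between 0.783 and 0.989. In bulk RNA, fewer cells of a type and less RNA per cell cannot be told apart.

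Family members were above background on between 12 and 40 of the 50 genes per array. The DM organoid had 23, the EM organoids 26 and 20, the Lgr5-sorted arrays 18 and 14, and the duct arrays 34 and 26. The hepatocyte arrays had 34 and 29, the adult livers 35 and 39, the pancreases 12 and 29, and the livers after CCl4 40 each. Abca4, Abca12, Abca13, Abca14, Abca15, Abca16, Abca17, Abcb5, Abcc10 and Abcc12 had no probe above background on 2 arrays, were not tested, and have no level given here. Among them, Abca13 was above background on 2 arrays, each with another probe.

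**Figure D1:**
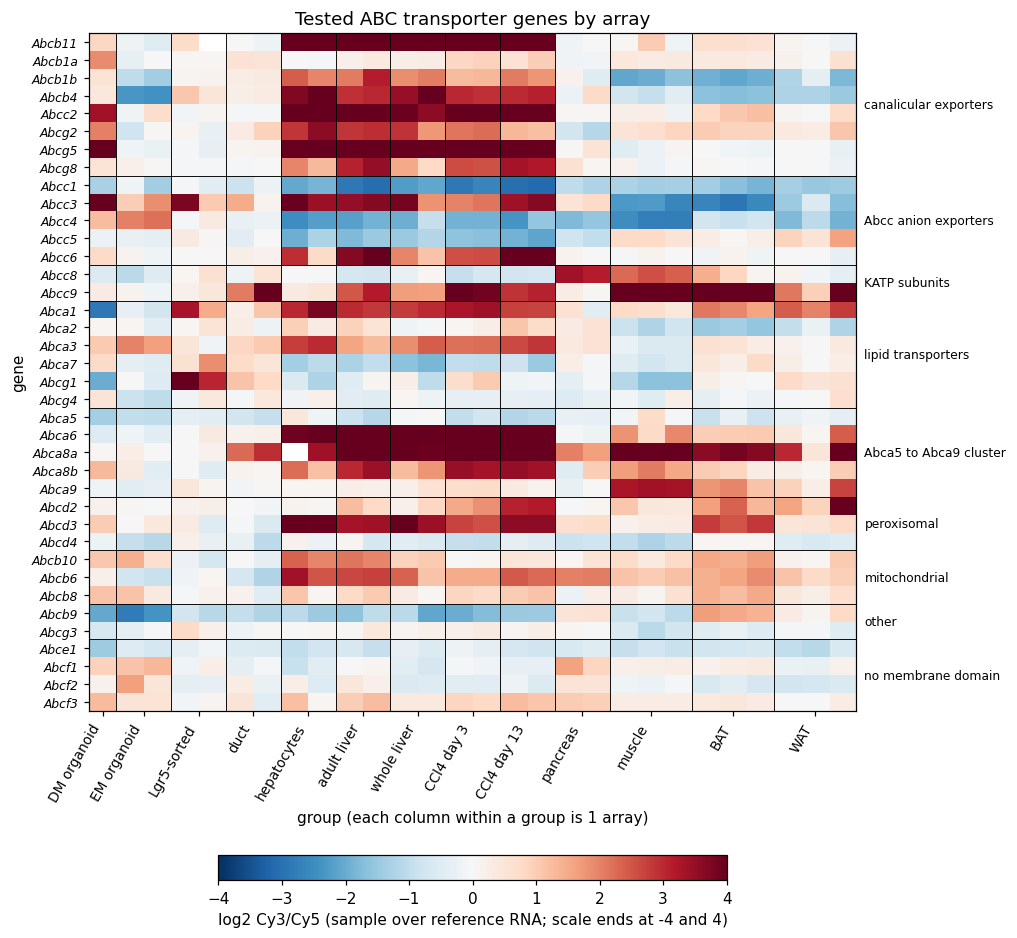
Log2 ratio of sample to reference RNA for 38 tested ABC transporter genes (rows, grouped by role) on the 28 arrays (columns, grouped by sample type), with colours ending at -4 and 4. The bile exporters Abcb11, Abcc2 and Abcg5 sit high in every liver and hepatocyte array and near 0 in the EM organoids and duct cells, and Abcc4 shows the opposite order. The blank cells are an Abca8a spot of hepatocytes and an Abcb11 spot of Lgr5-sorted cells, both set aside as outliers.

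The promoter sequences of the bile exporters are shown because these genes moved together between groups. Sequences are RefSeq's on GRCm38.p6, and 38 of the 50 members had at least 1 window there. Abcg5 and Abcg8, whose proteins pair into the exporter of cholesterol and plant sterols, lie head to head on chromosome 17 with 109 bases between their starts. That stretch, chr17:84683012-84683120 on the strand of Abcg8, is in the windows of both genes. The 250 bases before the start of Abcb11, the bile salt export pump, are chr2:69342617-69342866 on the minus strand. For Abcc2, which exports conjugated bilirubin, they are chr19:43782058-43782307 on the plus strand. For Abcc4, a basolateral exporter of organic anions that moved the other way, they are chr14:118706220-118706469 on the minus strand. Capitals mark matches to any motif searched.
Abcg5 and Abcg8: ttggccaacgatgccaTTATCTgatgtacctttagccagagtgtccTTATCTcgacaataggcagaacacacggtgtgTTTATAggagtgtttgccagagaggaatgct
Abcb11: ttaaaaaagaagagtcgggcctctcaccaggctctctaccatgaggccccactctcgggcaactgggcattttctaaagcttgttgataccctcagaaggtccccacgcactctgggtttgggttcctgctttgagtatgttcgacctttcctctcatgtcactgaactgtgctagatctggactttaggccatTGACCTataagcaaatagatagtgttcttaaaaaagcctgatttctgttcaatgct
Abcc2: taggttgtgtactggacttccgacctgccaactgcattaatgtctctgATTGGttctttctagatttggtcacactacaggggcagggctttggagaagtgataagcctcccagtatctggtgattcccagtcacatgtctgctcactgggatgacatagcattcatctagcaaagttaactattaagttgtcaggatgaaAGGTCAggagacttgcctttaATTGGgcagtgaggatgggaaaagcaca
Abcc4: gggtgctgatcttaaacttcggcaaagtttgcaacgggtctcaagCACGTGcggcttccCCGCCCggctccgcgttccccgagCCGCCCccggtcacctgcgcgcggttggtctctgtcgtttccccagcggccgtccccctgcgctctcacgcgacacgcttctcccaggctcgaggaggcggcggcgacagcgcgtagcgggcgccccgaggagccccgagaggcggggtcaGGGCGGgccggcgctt

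Each motif was searched on both strands in the 250 bases before every start. The nuclear receptor motif AGGTCA stood in the windows of Abcb11 and Abcc2 shown above, and in 14% of all 32851 windows. The GATA site AGATAA occurred at 2 places between the starts of Abcg5 and Abcg8, and 10% of all windows held it. The TATA box TATAAA, also between those starts, was in 12.4% of windows. The GC box GGGCGG and the E box CACGTG of the Abcc4 window were in 32.7% and 6% of windows, and the CCAAT box of the Abcc2 window in 33.8%. The HNF4A site CAAAGTCCA, the HNF1 site and the inverted repeat bound by the bile acid receptor matched no member's window and 0.384%, 0.009% and 0.006% of all windows. A match or its absence is a description of these letters in this window.

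The EM organoids were set against adult liver, the tissue they derive from. In EM organoids 19 of the 40 tested members fell and 4 rose relative to adult liver. Of all tested genes 32% were called, 17.6% lower and 14.4% higher. Among the members, 7 of 8 bile exporters and 3 of the 5 genes of the Abca5 to Abca9 cluster were lower, while Abcc4, Abcc1, Abcc5 and Abcf1 were higher. The median change over the 40 members was -0.96, against -0.09 over all tested genes. On the scan day that held an array of each group, all 23 called members kept their direction. Those arrays also gave the calls, so this is no separate test.

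The duct and hepatocyte samples compared the 2 epithelial compartments of the liver directly. In duct cells 17 members fell and 6 rose relative to hepatocytes. Of all tested genes 23.4% were called, 11.5% lower and 11.9% higher. The direction was the same for all 23 within each of the 2 slides that held both groups. Each change is the mean of the differences on these slides, so this is no separate test. The 2 comparisons, of organoids with liver and of duct cells with hepatocytes, use no array in common. Abcb11, Abcg5, Abcc2, Abcb4, Abcb6 and Abcd3 were among those called lower in both, and Abcc4, Abcc1 and Abcc5 were called higher in both. Between duct cells and hepatocytes, Abcc5 changed by 1.40 with its brightest probe and by 0.56 and 0.09 with the others. With the mean of all tested probes, 0.68, it was not called there.

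Differentiation medium was compared with expansion medium to see whether the transporters of mature hepatocytes appeared in culture. In the DM organoid 9 members were called higher and 2 lower than in EM organoids. Of all tested genes 10.3% were called, 6.25% higher and 4.02% lower. Of the 9, Abcb1a and Abcg4 were above background in neither group, so no fold is given for them. There was 1 DM array, so its spread is assumed to equal that of the other groups. The DM organoid shared its slide with EM organoid 2, and all 11 directions were the same on that slide. Both arrays also gave the calls, so this is no separate test. Against adult liver, the DM organoid had 5 members called higher, among them Abcb1a, which was above background in neither group, and 15 lower. Of all tested genes 28.3% were called there, 13.9% higher and 14.4% lower. The DM organoid shared no slide and no scan day with adult liver, so batch cannot be told apart from group there. The largest rises against adult liver besides Abcb1a were those of Abcc4, at 3.27, Abca7, at 1.87, Abcc1, at 1.64, and Abcc5, at 1.39. The 5 largest falls were those of Abca6, Abca1, Abcb11, Abca8a and Abcc6, none of them well above background in the DM organoid, with adult liver at least 12.3-fold, 12.7-fold, 46.8-fold, 9.51-fold and 5.75-fold higher.

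**Figure D2:**
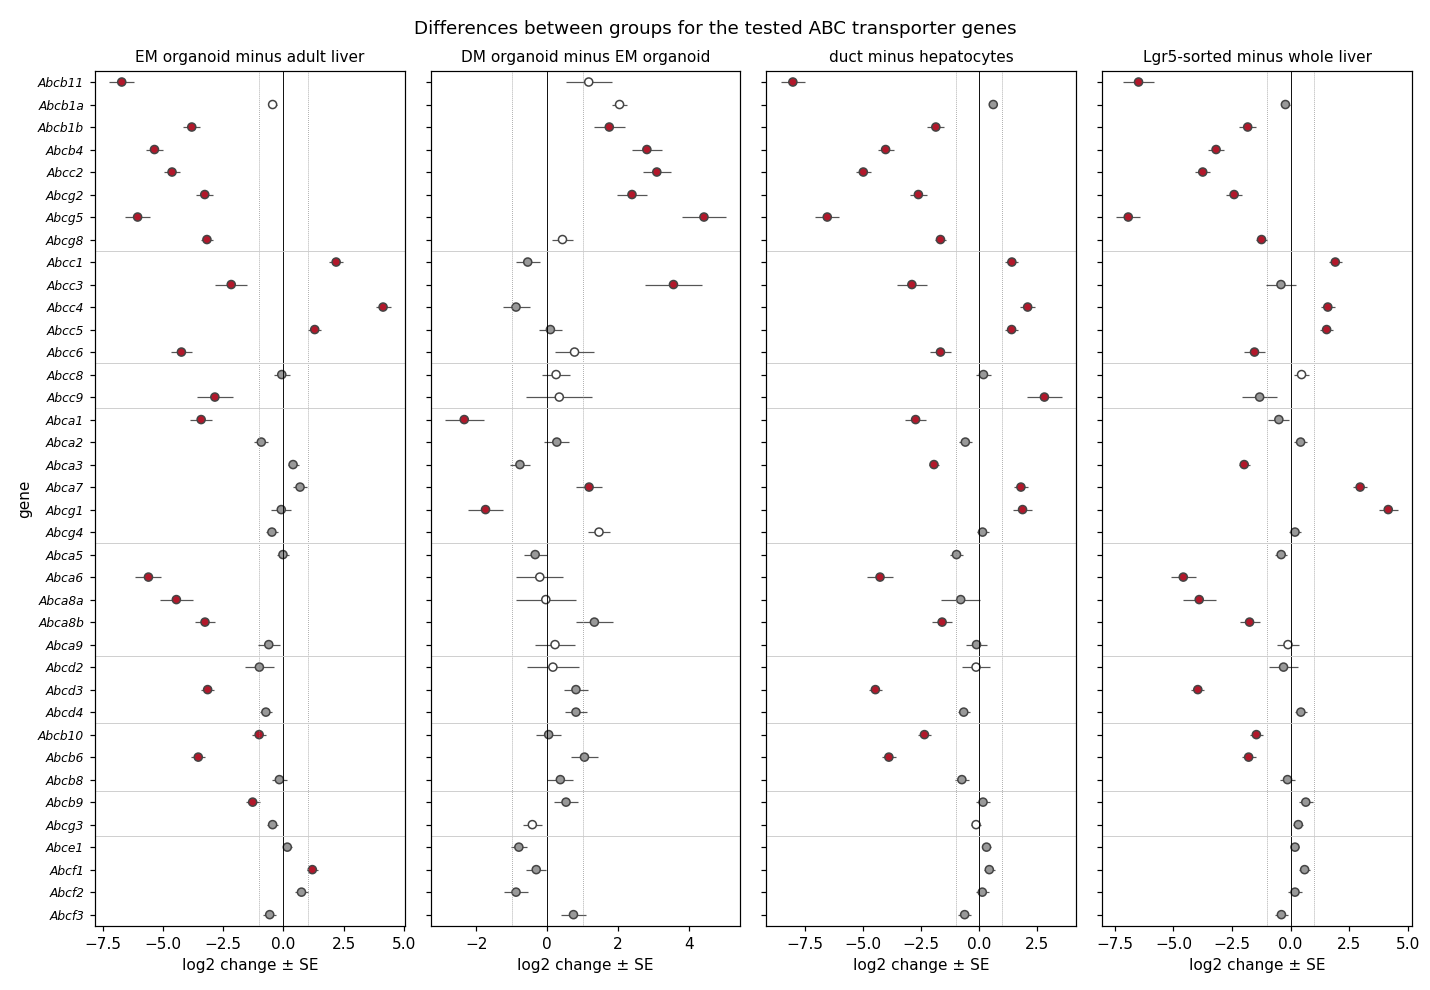
Log2 change with its standard error for 38 tested members (rows, grouped by role) in 4 comparisons, each group named first minus the group named second. Red points were called, grey points were not, and open points were above background in neither group. The bile exporters lie left of 0 in the organoid, duct and Lgr5-sorted comparisons and right of 0 for DM against EM, apart from Abcb1a between duct cells and hepatocytes.

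The bile salt export pump Abcb11 was at -0.20 and -0.48 in EM organoids, against 6.24 and 6.52 in adult livers. It was not well above background in the organoids, and adult liver was at least 106-fold higher (adjusted p = 4.94e-09). In duct cells Abcb11 was at 0.00 and -0.19, against 6.82 and 9.01 in hepatocytes, where it was at least 258-fold higher (adjusted p = 6.38e-10). The Cy3 channel gave larger folds for Abcb11, 273-fold for adult liver over EM organoids and 1060-fold for hepatocytes over duct cells. Without hepatocyte replicate 2 the change of the ratio in duct cells was -6.92, against -8.01 with both. The groups did not overlap in either comparison, although the hepatocyte arrays themselves differed. In the DM organoid Abcb11 stood at 0.83 and was not well above background.

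Abcg5 was at -0.18 and -0.28 in EM organoids, against 5.72 and 5.94 in adult livers, a difference of at least 66.8-fold (adjusted p = 6.59e-09). The DM organoid reached 4.19, above both EM organoids and below both adult livers. That was at least 11-fold higher than in EM organoids (adjusted p = 5.84e-05). The change of the DM organoid against adult liver was -1.65 ± 0.63 (SE, adjusted p = 0.0468), a call lost without either adult liver array (-1.75 and -1.54). Its partner Abcg8 stood at 0.56 in the DM organoid and 0.21 and 0.04 in EM organoids, not well above background in either. Abcg8 was at 3.08 and 3.52 in adult livers, at least 3.79-fold higher than in EM organoids (adjusted p = 1.49e-09). The pair that shares a promoter stretch thus differed in detection in the DM organoid. Abcg8 had less room above the floor even in adult liver, at least 3.79-fold against 66.8-fold for Abcg5. The difference in detection therefore does not show that the 2 genes changed differently.

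Abcc2 stood at 3.37 in the DM organoid, against -0.14 and 0.70 in EM organoids. It was at least 5.86-fold higher in the DM organoid (adjusted p = 1.26e-05). Adult livers were at 4.99 and 4.84, at least 24.8-fold above EM organoids (adjusted p = 2.93e-10). The DM organoid lay between the groups, and its change against adult liver was -1.54 ± 0.39 (SE, adjusted p = 0.00357), and -0.38 against whole liver, not called. Duct cells were at -0.09 and -0.05, with hepatocytes at 4.35 and 5.47 and at least 31.5-fold higher (adjusted p = 1.57e-10).

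Abcb4, the floppase that moves phosphatidylcholine into bile, was at 0.42 in the DM organoid, against -2.34 and -2.43 in EM organoids. The change was 2.81 ± 0.42 (SE, adjusted p = 9.93e-05), but the other tested Abcb4 probe changed by 0.02. Adult livers were at 2.93 and 3.02, and EM organoids differed from them by -5.36 ± 0.34 (adjusted p = 1.18e-10). The other probe showed -3.62 there. Duct cells were at 0.22 and 0.33, against 3.71 and 4.89 in hepatocytes, a change of -4.02 ± 0.34 (adjusted p = 1e-08). No group overlapped its comparison group in these comparisons.

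Abcg2, an exporter of urate, porphyrins and drugs, was at 2.01 in the DM organoid, against -0.81 and 0.05 in EM organoids, a change of 2.39 ± 0.43 (SE, adjusted p = 0.000665). Adult livers were at 2.85 and 2.94, above every organoid, and EM organoids differed from them by -3.27 ± 0.35 (adjusted p = 1.85e-07). Abcb1b, a rodent multidrug P-glycoprotein, was at 0.56 in the DM organoid, against -1.01 and -1.38 in EM organoids and 2.09 and 3.15 in adult livers. Its change was 1.75 ± 0.44 between DM and EM (adjusted p = 0.0103). The probes of Abcb1b disagreed elsewhere: the brightest gave -1.86 and another tested probe 1.39 between duct cells and hepatocytes, and -3.81 and -0.25 between EM organoids and adult liver. Its direction in duct cells is uncertain. Of the 8 canalicular exporters, 7 fell in EM organoids against adult liver, and 7 fell in duct cells against hepatocytes, or 6 without Abcb1b. Abcb1a, the other P-glycoprotein gene, was called in neither.

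**Figure D3:**
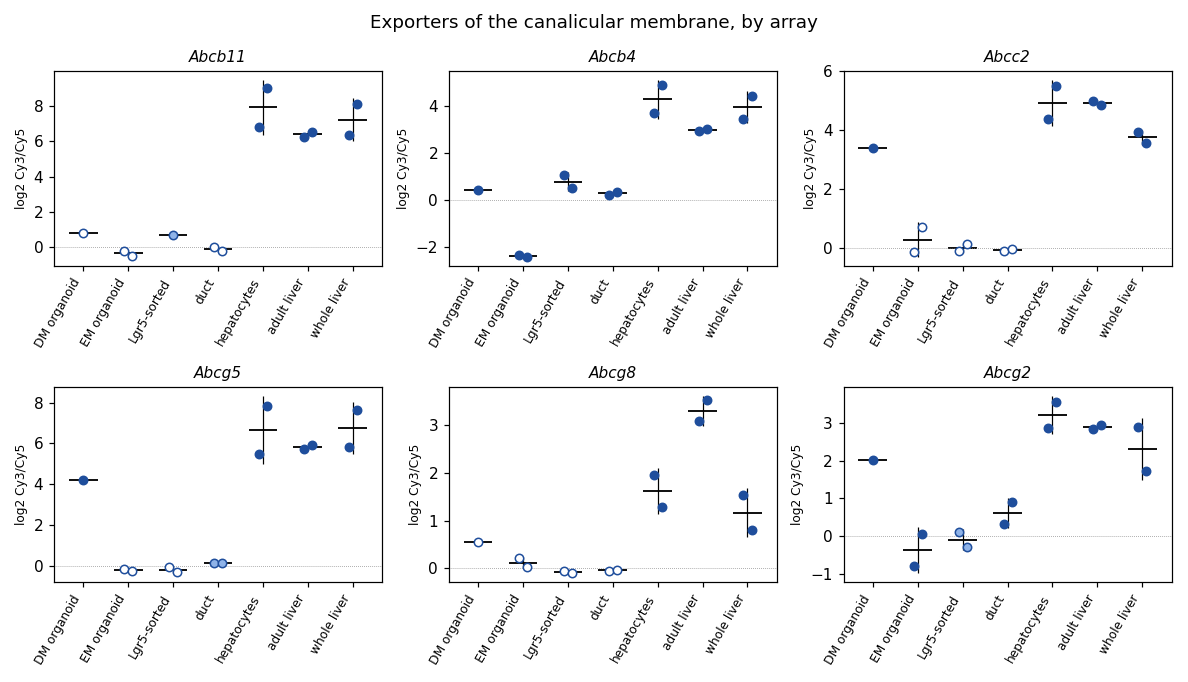
Log2 ratio of sample to reference RNA for 6 canalicular exporters in the organoids, sorted cells and undamaged livers. Points are arrays, bars are the mean and 1 SD, and filled points mark groups where every array was above background, pale points some and open points none. Abcg5 and Abcc2 reach 4.19 and 3.37 in the DM organoid, while Abcb11 and Abcg8 are at 0.83 and 0.56 there with open points.

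The basolateral exporters moved in both directions. Abcc4, an exporter of cyclic nucleotides and bile salts, was at 2.03 and 2.20 in EM organoids, against -2.17 and -1.88 in adult livers, a change of 4.14 ± 0.31 (SE, adjusted p = 1.1e-09). The other tested Abcc4 probe changed by 1.56. The DM organoid was at 1.24, below both EM organoids and above all livers. EM organoids were also above duct cells, which were at -0.30 and -0.22, by 2.38 ± 0.31 (adjusted p = 4.38e-06). The gene was above background on 25 of the 28 arrays, and its highest levels were those of the organoids. Between duct cells and hepatocytes, Abcc4 changed by 2.09 ± 0.31 (adjusted p = 1.73e-05) with the brightest probe and by -0.08 with the other.

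Abcc1, the multidrug resistance protein that exports glutathione conjugates, was at -0.16 and -1.38 in EM organoids, against -2.86 and -3.06 in adult livers, a change of 2.19 ± 0.28 (SE, adjusted p = 1.81e-06). Duct cells were at -0.85 and -0.23, against -2.04 and -1.86 in hepatocytes, and did not overlap with them. Abcc5, an exporter of nucleotide analogues, was at -0.31 and -0.36 in EM organoids, against -1.76 and -1.5 in adult livers, a change of 1.30 ± 0.27 (adjusted p = 0.000507). With the mean of all tested probes that change was 0.86.

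Abcc3, which returns conjugated bile salts to blood, was at 4.98 in the DM organoid, against 0.99 and 1.85 in EM organoids. The change was 3.56 ± 0.80 (SE, adjusted p = 0.00494), and the DM level lay above both adult livers, at 3.52 and 3.67. EM organoids differed from adult liver by -2.17 ± 0.66 (adjusted p = 0.00992), with its other probe at -0.75, a call that was lost without adult liver 2 (-2.10) or EM organoid 1 (-1.74). Abcc6, which in liver releases ATP and is mutated in the calcification disorder pseudoxanthoma elasticum, was at 0.14 and -0.17 in EM organoids, against 3.67 and 4.79 in adult livers. Adult liver was at least 9.83-fold higher (adjusted p = 1.31e-07), and Abcc6 was not well above background in any organoid.

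**Figure D4:**
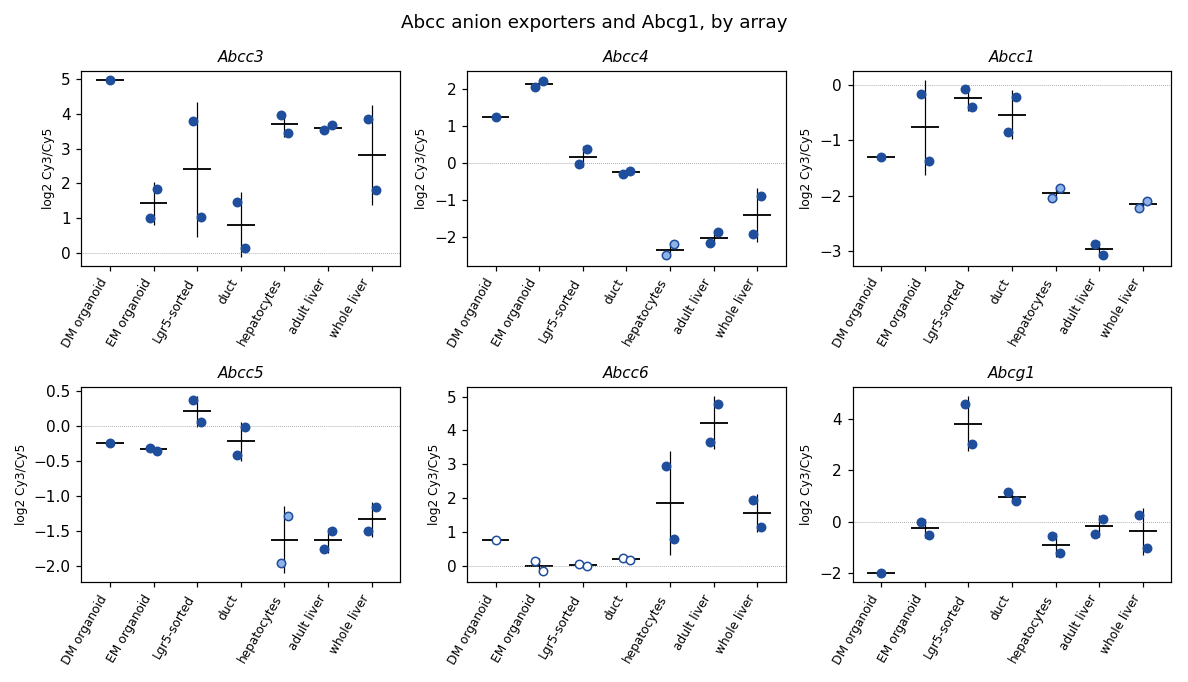
Log2 ratio of sample to reference RNA for 5 Abcc exporters and Abcg1 in the organoids, sorted cells and undamaged livers. Points, bars and fills are as in the plot of the canalicular exporters. Abcc4 is highest in EM organoids, Abcc3 in the DM organoid, and Abcg1 in Lgr5-sorted cells.

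The cholesterol exporters Abca1 and Abcg1 were lower in differentiation medium. Abca1, which loads cholesterol onto apolipoprotein A1, was at -2.86 in the DM organoid, where it was not well above background, against -0.32 and -0.72 in EM organoids, at least 1.63-fold higher (adjusted p = 0.00637). Adult livers were at 2.98 and 2.82, and EM organoids differed from them by -3.42 ± 0.45 (SE, adjusted p = 2.46e-06). Abcg1, which passes cholesterol to mature high-density lipoprotein, was at -2.0 in the DM organoid, against 0.00 and -0.52 in EM organoids, a change of -1.74 ± 0.50 (adjusted p = 0.0241). Without EM organoid 1 that call was lost, at -1.48. Abca7 rose instead, by 1.18 ± 0.36 (adjusted p = 0.0333), at 0.75 in the DM organoid, against -0.38 and -0.49 in EM organoids. That call was lost without either EM organoid (1.23 and 1.13). Apoa1, the lipid acceptor of Abca1, rose in the DM organoid, to at least 9.54-fold the EM level (adjusted p = 0.000267), a call lost with Agilent's own log ratio (4.83).

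In the Lgr5-sorted cells Abcg1 was at 4.57 and 3.04, above every other array, against 1.14 and 0.81 in duct cells. The change was 2.83 ± 0.41 (SE, adjusted p = 5.12e-05). Lgr5-sorted cells had 2 members called higher and 2 lower than duct cells. Of all tested genes 11.3% were called, 5.75% higher and 5.5% lower. All 4 directions were the same within each of the slides that held both groups, which is no separate test, since the same arrays gave the calls. Fitted on these groups alone, 0 members were called, with 7 below an unadjusted p of 0.05. Abca1 was at 3.31 and 1.47 in Lgr5-sorted cells, against 0.25 and 1.11 in duct cells, a change of 1.71 ± 0.45 (adjusted p = 0.0101) that was lost without Lgr5-sorted replicate 1 (0.79) or duct replicate 1 (1.28). All 5 macrophage markers examined were called higher in the same comparison, with a summed Cy3 signal of 534605 and 48317 in Lgr5-sorted cells, against 4230 and 3803 in duct cells. Lgr5-sorted replicate 1 held the higher value of Abcg1, of Abca1 and of the macrophage markers, whose part in the result was not tested. The members called lower, Abcc9 and Abca8a, were not well above background in Lgr5-sorted cells, and duct cells were at least 7.48-fold and 5.79-fold higher (adjusted p = 0.0106 and 0.0148). Without duct replicate 2 both calls were lost, at -1.74 for Abcc9 and -2.19 for Abca8a, as they were without Lgr5-sorted replicate 1, at -2.77 and -2.43.

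Against whole liver, Lgr5-sorted cells had 16 members called lower and 5 higher. Of all tested genes 21.4% were called, 9.56% lower and 11.8% higher. Abcg5 was at -0.06 and -0.32, against 5.84 and 7.63 in whole livers, which were at least 122-fold higher (adjusted p = 1.89e-09). Abcc2 was likewise not well above background in Lgr5-sorted cells, and whole liver was at least 13.4-fold higher (adjusted p = 1.14e-08). Abcb11 had 1 usable value in Lgr5-sorted cells, 0.72, since the other spot was set aside as an outlier, against 6.36 and 8.07 in whole livers. Abca7, a lipid exporter expressed in macrophages and brain, was at 0.62 and 1.85, against -1.63 and -1.84 in whole livers, a change of 2.97 ± 0.29 (SE, adjusted p = 9.91e-08). Abcg1 rose by 4.17 ± 0.41 (adjusted p = 8.51e-08), and Abcc1, Abcc4 and Abcc5 by 1.91, 1.59 and 1.54. The other tested probes gave 0.00 for Abcc4 and 0.41 and 0.16 for Abcc5. Among the falls, Abca6 was at least 23.9-fold and Abca8a at least 15-fold higher in whole liver, and Abcd3 changed by -3.96. The macrophage markers summed to 7500 and 18367 in whole livers, below both Lgr5-sorted arrays.

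Several lipid and channel genes were higher in duct cells than in hepatocytes. Abcc9 was at 2.07 and 4.39 in duct cells, against 0.37 and 0.47 in hepatocytes, where it was not well above background, and was at least 7.02-fold higher in duct cells (adjusted p = 0.00653). That call was lost without duct replicate 2 (1.65) and with these groups fitted alone. The other tested Abcc9 probes changed by 1.26 and 0.59, against 2.81 with the brightest. Abcg1 changed by 1.87 ± 0.41 (SE, adjusted p = 0.00103) and Abca7 by 1.80 ± 0.29 (adjusted p = 5.04e-05), both without overlap of the groups. Stellate cell and fibroblast markers summed to 89890 and 329722 in duct cells, against 1404 and 8185 in hepatocytes. All 5 isolation stress genes were also called higher in duct cells, and the part of either list in the result was not tested.

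EM organoids and duct cells differed in 13 members, 4 higher and 9 lower in the organoids, with 26.6% of all tested genes called, 12.4% higher and 14.2% lower. Without duct replicate 2 the count was 8. The members higher in EM organoids were Abcc4, Abcf1 (1.46), Abcb10 (at least 2.36-fold) and Abcf2, another ribosome-associated member (1.06). Abcb10 had another probe at -0.29, and Abcf2 lost its call without EM organoid 1 (0.48) or duct replicate 2 (0.77). Among the falls were Abcb4, at -2.66, with its other probe at -0.09, Abcb1b, at -1.52, and the lysosomal peptide transporter Abcb9, at -1.52. Abcc9, the sulphonylurea receptor subunit of vascular and muscle potassium channels, was at 0.14 and -0.18 in EM organoids and not well above background, against 2.07 and 4.39 in duct cells, which were at least 9.52-fold higher (adjusted p = 0.00183). Abca8a, a lipid transporter of the chromosome 11 cluster, was at 0.25 and -0.03, against 2.27 and 2.95, at least 5.65-fold higher in duct cells (adjusted p = 0.00727). Both calls were lost without duct replicate 2, which had the higher value of each. Stellate cell and fibroblast markers summed to 870 and 893 in EM organoids, below both duct arrays given above, of which duct replicate 2 was the higher. Endothelial markers summed to 529 and 544 in EM organoids, against 29682 and 20783 in duct cells. The part of these cells in the result was not tested. EM organoids and duct cells shared no slide and no scan day, so batch cannot be told apart from group.

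The Abca5 to Abca9 genes, which lie in a row on chromosome 11, include several liver genes of lipid transport. Abca6 was at -0.17 and -0.46 in EM organoids, against 4.94 and 5.66 in adult livers, at least 21.9-fold higher in liver (adjusted p = 3.93e-08). Abca8a was likewise at least 14.8-fold higher in adult liver (adjusted p = 2.89e-05). The DM organoid stood at -0.53 for Abca6 and 0.08 for Abca8a, neither well above background, and no gene of this cluster was called between DM and EM.

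Among the peroxisomal transporters, Abcd3, which imports branched-chain fatty acids and bile acid precursors, was at -0.03 and 0.43 in EM organoids, against 3.33 and 3.38 in adult livers, a change of -3.15 ± 0.28 (SE, adjusted p = 1.12e-08). Duct cells were at -0.08 and -0.59, against 4.33 and 3.94 in hepatocytes, with no overlap (change -4.46 ± 0.28, adjusted p = 1.17e-10). Both other Abcd3 probes had the same direction, at -1.36 and -1.51. Abcd4, of the same subfamily but of vitamin B12 transport, was called in neither comparison.

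The mitochondrial transporters Abcb6 and Abcb10 were lower in EM organoids than in adult liver and in duct cells than in hepatocytes. Abcb6, a porphyrin transporter, was at -0.78 and -0.90 in EM organoids, against 2.67 and 2.73 in adult livers, a change of -3.54 ± 0.30 (SE, adjusted p = 6.78e-09). Duct cells were at -0.68 and -1.20, against 3.37 and 2.50 in hepatocytes. Abcb8, a component of the mitochondrial potassium channel, was at 1.15 and 0.36 in EM organoids, against 0.80 and 1.05 in adult livers, and was not called. Abcb10, needed for haem synthesis, depended on the liver used: its change was -1.01 ± 0.29 against adult liver (adjusted p = 0.00769) and 0.06 against whole liver. In duct cells Abcb10 was not well above background, and hepatocytes were at least 5.1-fold higher (adjusted p = 2.17e-06), but its other probe changed by -0.16.

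Of the 4 members without a membrane domain, Abcf1 was called between EM organoids and adult liver. Abcf1, a translation factor that binds ribosomes, was at 1.15 and 1.32 in EM organoids, against -0.02 and 0.10 in adult livers, a change of 1.20 ± 0.23 (SE, adjusted p = 0.000205), or 0.78 with the mean of all tested probes. Abce1, the ribosome recycling factor, was at -0.51 and -0.71 in EM organoids, against -0.64 and -0.91 in adult livers, and the ranges overlapped. Of the 4 such genes, none was called between duct cells and hepatocytes (23.4% of all tested genes called).

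Hepatocytes and whole liver were compared to see which members the fraction enriched. No member was called, against 0.798% of all tested genes called, 0.423% higher and 0.375% lower, while 8 of the 40 had an unadjusted p below 0.05. The closest were Abcb10, at 1.17 ± 0.29 (SE, adjusted p = 0.0602), and Abcb6, at 1.18 ± 0.30 (adjusted p = 0.0629). Other settings called between 0 and 3 members. The undamaged livers themselves differed: adult liver had 5 members called higher than whole liver (Abcb10, Abcc2, Abca8b, Abcg8 and Abcc6) and 0 lower, with 6.54% of all tested genes called, 4.18% higher and 2.36% lower. Agilent's own log ratio called 1 member and turned the direction of Abcc2 (-1.65) and Abca8b (-0.18). Fitted on these groups alone, 0 were called, with 19 below an unadjusted p of 0.05. Abcc6 differed by 2.67 and Abcg8 by 2.14. Without adult liver 2 the count was 2, and without whole liver 2 it was 3. The arrays of both groups were on separate slides and were scanned on separate days, and batch cannot be told apart from group there.

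The livers after CCl4 were compared with undamaged liver at each day. At day 3, 2 members were called higher and 1 lower than in undamaged liver, taken as the mean of adult and whole liver, with 6.98% of all tested genes called, 4.96% higher and 2.02% lower. Abcc2 was at 5.74 and 5.62 at day 3, against 4.99 and 4.84 in adult livers and 3.93 and 3.57 in whole livers, a change of 1.34 ± 0.27 (SE, adjusted p = 0.00183). With adult liver alone it was 0.76 and with Cy3 signal alone 0.89, neither called, and with Agilent's own log ratio the direction turned, at -0.39. Abcb10 was at 0.03 and 0.07 at day 3, against 2.15 and 1.96 in adult livers and 0.92 and 1.04 in whole livers, a change of -1.47 ± 0.26 (adjusted p = 0.00047). Its other probe changed by -0.16, and the mean of both, -0.81, was not called. Abcg1, called at 1.14 ± 0.35 (adjusted p = 0.032), lost its call without either day 3 array (0.96 and 1.33), without whole liver 2 (0.82) or without adult liver 1 (0.99). The CCl4 arrays were on a slide of their own, so damage and slide cannot be told apart here.

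At day 13, 2 members were called higher and 2 lower than in undamaged liver, with 1.33% of all tested genes called, 0.907% higher and 0.418% lower. Abcd2, a peroxisomal importer of very long-chain and polyunsaturated fatty acids, was at 3.09 and 3.18 at day 13, above all undamaged livers, which were at 1.24 and 0.79 (adult) and 0.20 and 0.83 (whole). The change was 2.37 ± 0.53 (SE, adjusted p = 0.0184). At day 3 Abcd2 was at 1.52 and 1.83, between these groups. The other tested Abcd2 probe changed by 0.89 at day 13, and the mean of both, 1.63, was not called. The day 13 call of Abcd2 was lost in 8 of 21 other settings. Among these were Agilent's own log ratio (2.78), Cy3 signal alone (2.65) and adult liver alone (2.12). Adipocyte markers summed to 10359 and 5521 at day 13, against 2526 and 2955 in adult livers and 4075 and 3129 in whole livers, with 7460 and 8186 at day 3, and their part in the result was not tested. Abcg2 was at 1.32 and 1.20 at day 13, against 2.85 and 2.94 in adult livers and 2.90 and 1.72 in whole livers, a change of -1.34 ± 0.30 (adjusted p = 0.0208). Abcb10 was lower again, at -1.06 ± 0.26 (adjusted p = 0.0311), with its other probe at -0.16. That call was lost in 11 of 21 other settings, with the smallest change, -0.52, against whole liver alone. Abcg8 was called at 1.03 ± 0.21 (adjusted p = 0.0115), but its day 13 levels, 3.32 and 3.20, overlapped those of adult liver, and against adult liver alone the change was -0.04. None of these calls held without either day 13 array (0 members called).

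Day 13 and day 3 shared a slide, which allows a comparison within it. Abcc6 was the member called, at 3.99 and 4.11 on day 13, against 2.59 and 2.61 on day 3, a change of 1.45 ± 0.44 (SE, adjusted p = 0.0465), with 5.67% of all tested genes called, 2.13% higher and 3.54% lower. The call was lost when any of the 4 arrays was left out. Abcb11, Abcg5 and Abcb4 were called in no CCl4 comparison, and Abcb11 ran between 6.16 and 6.86 on the 4 CCl4 arrays.

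Across adult tissues, liver had more members called higher than lower in each comparison. Adult liver had 17 higher and 5 lower than pancreas, where 12.6% and 16.4% of all tested genes were called higher and lower, 29% in all. It had 20 higher and 6 lower than muscle, with 15.9% and 19.9%, 35.7% in all. It had 18 higher and 5 lower than WAT, with 13.4% and 14.5%, 27.9% in all. It had 15 higher and 8 lower than BAT, with 13.3% and 15.8%, 29.1% in all. Abcb11, Abcg5, Abcc2, Abcb4, Abcb1b, Abcg2 and Abcg8 were called higher in liver in all 4. Abcc3 was too, by 6.30 over BAT, 6.00 over muscle, 4.84 over WAT and 2.93 over pancreas. With its other probe these changes were 1.17, 1.02, 1.07 and 0.89. Abcc6 and Abca6 were higher than in each tissue, by at least 11-fold and 23.9-fold over pancreas. The other Abcb1b probe gave -2.21 against pancreas and -0.35 against WAT, the opposite direction. These comparisons share the adult liver arrays, so their directions are not independent. Adult liver shared no slide and no scan day with any of these tissues, so tissue and batch cannot be told apart.

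Some members were higher elsewhere. Abcc8, the sulphonylurea receptor of pancreatic beta cells, was at 3.36 and 3.15 in pancreas, against -0.69 and -0.75 in adult livers, so that adult liver minus pancreas was -3.97 ± 0.33 (SE, adjusted p = 5.36e-09). In muscle the same probe gave 2.25, 2.57 and 2.39. The other tested Abcc8 probe changed by -0.02 for adult liver minus pancreas and by 0.16 for adult liver minus muscle, so both differences rest on 1 probe. Abcc9 was at 5.63, 5.45 and 5.78 in muscle and 5.18, 5.39 and 5.52 in BAT, against 2.49 and 3.17 in adult livers. Its change was -2.79 ± 0.70 for adult liver minus muscle (adjusted p = 0.00196), and all 3 probes had that direction. With Agilent's own log ratio it was -0.44 for adult liver minus muscle and -0.03 for adult liver minus BAT, neither called. The call against BAT was also lost without adult liver 1 (-2.20). In the levels given here, adult liver was below both tissues without overlap.

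Abca9, a lipid transporter of the chromosome 11 cluster, was at 0.25 and 0.21 in adult livers, against 3.25, 3.36 and 3.34 in muscle, a change of -3.09 ± 0.42 (SE, adjusted p = 2.87e-06). The other tested Abca9 probe changed by -0.68. Abcb9, a lysosomal peptide transporter, was at -1.61 and -1.02 in adult livers, against 1.67, 1.53 and 1.38 in BAT, a change of -2.84 ± 0.26 (adjusted p = 2.41e-08). Neither gene's groups overlapped. Abcc1 and Abca7 were lower in adult liver than in pancreas, WAT and BAT, at -1.83, -1.54 and -1.32 for Abcc1 and at -1.21, -1.29 and -1.63 for Abca7. Abcc5 was lower in adult liver than in WAT, at -2.65, muscle, at -2.32, and BAT, at -1.82. Abcf1 was lower than in pancreas, at -1.19, with its other probe at -0.10.

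Brown and white adipose tissue differed in 5 members, 4 higher and 1 lower in BAT, with 19% of all tested genes called, 9.63% higher and 9.34% lower. Without WAT replicate 3 the count was 9. The WAT arrays were on other slides than the BAT arrays and were scanned on another day, so tissue and batch cannot be told apart. Abcd3 was at 2.79, 2.50 and 2.84 in BAT, against 0.47, 0.51 and 0.75 in WAT, a change of 2.13 ± 0.23 (SE, adjusted p = 5.22e-07). Abcb10 was at 1.56, 1.44 and 1.68 in BAT, against 0.18, 0.07 and 1.06 in WAT, a change of 1.12 ± 0.24 (adjusted p = 0.000951). It was 0.94 without WAT replicate 2 and 1.00 without WAT replicate 1, no longer called. The other Abcb10 probe changed by 0.24. The call was also lost with Agilent's own log ratio (0.78) and with Cy3 signal alone (0.83). Without background correction (0.99) and with the mean of all tested probes (0.68) it was lost too. Abcc9 was at 5.18, 5.39 and 5.52 in BAT, against 2.11, 0.95 and 4.79 in WAT, with WAT replicate 3 the nearest to BAT. It rose by 2.75, with both other probes in the same direction on the same arrays. With Agilent's own log ratio its direction turned, at -0.72, and the call was lost with Cy3 signal alone (0.57) and with these groups fitted alone. Abcb9 rose by 1.11, lost without WAT replicate 2 (0.95). Abcc3 changed by -1.47, with its other probe at -0.10, lost when any of 5 arrays was left out. Abcd2 was at 1.64, 2.37 and 1.33 in BAT, against 1.58, 0.88 and 4.08 in WAT, and the groups overlapped, with WAT replicate 3 above every BAT array.

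**Figure D5:**
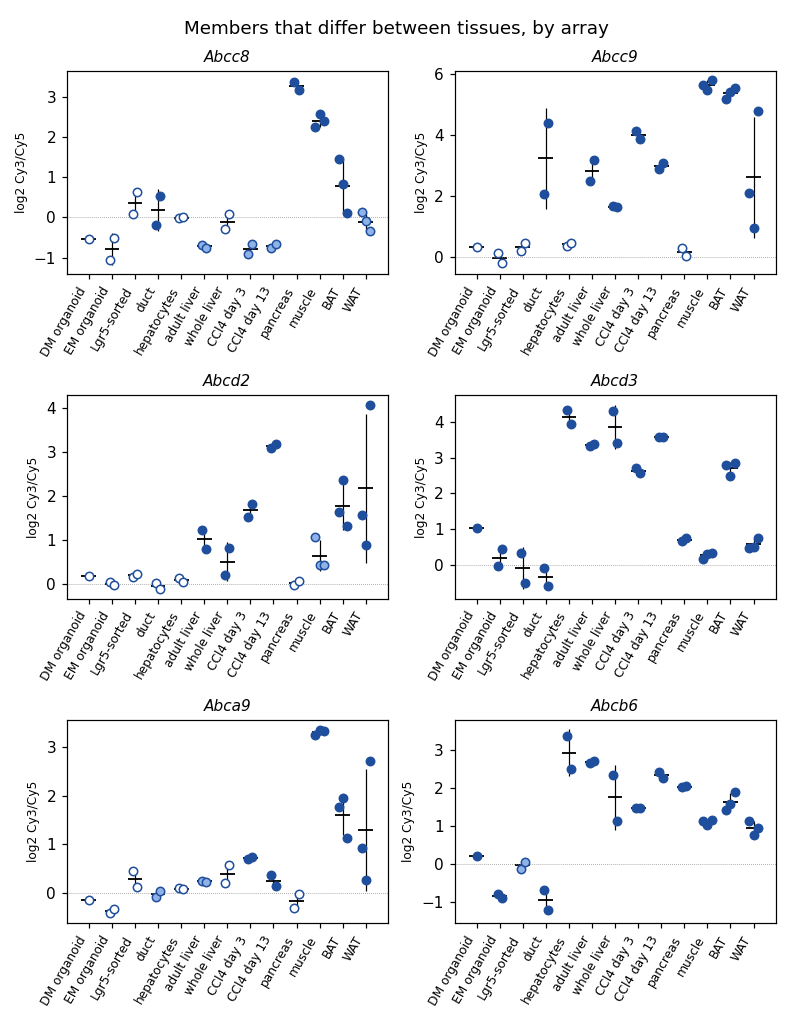
Log2 ratio of sample to reference RNA for 6 members in all 13 groups. Points, bars and fills are as in the plot of the canalicular exporters. Abcc8 is highest in pancreas, Abcc9 in muscle and BAT, and Abcd2 is at 3.09 and 3.18 at day 13 after CCl4, with WAT replicate 3 at 4.08.

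The genes around the transporters in bile formation were read from lists of nuclear receptors and other regulators, uptake and basolateral carriers, and scaffold proteins. Of 14 regulators, 9 fell and 3 rose in EM organoids against adult liver, where 17.6% of all tested genes were called lower and 14.4% higher. Nr1h4, the bile acid receptor that induces Abcb11, changed by -6.14 in EM organoids against adult liver (adjusted p = 1.42e-10) and by 3.90 in the DM organoid against EM organoids (adjusted p = 1.23e-05). Hnf4a, a hepatocyte transcription factor, changed by -2.35 and by 1.16 in those comparisons (adjusted p = 2.44e-08 and 0.0057). Its calls were lost with Agilent's own log ratio in both comparisons (-1.14 and 1.44), against whole liver (-0.82) and, between DM and EM, with the mean of all tested probes (0.47), with Cy3 signal alone (1.63) and with these groups fitted alone. Of the 6 tested uptake and basolateral carriers, all fell in EM organoids against adult liver. One of them was called between DM and EM, the basolateral bile salt exporter subunit Slc51b, which is no uptake carrier. It was at least 7.44-fold higher in DM (adjusted p = 2.93e-07). The fall of Slc51b in EM organoids lost its call without adult liver 2 (-0.84) and against whole liver (-0.92). The scaffold gene Pdzk1, whose protein anchors canalicular transporters, was at least 4.31-fold higher in the DM organoid than in EM organoids (adjusted p = 0.000287). Hepatocyte markers summed to 5506 in the DM organoid, against 994 and 807 in EM organoids, and to 756539 and 683481 in adult livers. Of the 6 hepatocyte markers, 1 was called higher in the DM organoid than in EM organoids, where 6.25% of all tested genes were called higher.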

How the data were processed

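Each array's scanner file held 2-colour intensity values, extracted with Feature Extraction 10.5.1.1 per the file headers and 8.5.1.1 per the submitters' processing notes. The deposited log10 ratio of the series table equalled the scanner files' own log10 ratio and was used as an alternative. From the median intensities the background was removed (normexp, offset 50), arrays were loess-normalized and the ratio was taken as log2 Cy3/Cy5, with limma 3.58.1 in R 4.3.3. Outlier spots were left out and the spots of a probe averaged. A probe was tested where it was well above background on at least 2 arrays, and a gene was represented by its brightest tested probe. One model of 13 group means over 28 arrays was fitted. Calls needed an adjusted p below 0.05 and a log2 change of at least 1, and the fit was checked on simulated data. Named genes were key members of the family plus, in each comparison, the 5 largest called rises and falls. The members, the gene lists and the motifs were chosen with earlier results of these data known. Probe positions in the files are on mm9. Alternatives covered normalization, filters, probe choice, slide and scan day, the replicate block and leaving out arrays. The results of 2 tested members are not reported here by name, though the counts include them.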

Additional observations from a re-analysis of the deposited data

How the results depend on the processing

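The counts of called members were recomputed under the alternatives, as were 237 called changes, those of all called members and of the 5 regulator, carrier, scaffold and lipid acceptor genes named. Of 4089 values of these changes, 3815 kept direction and side of the threshold, 268 lost the call and 6 reversed. Changes named but not called were not among them. With Agilent's own log ratio, 2 members were called for hepatocytes against whole liver, 15 for Lgr5-sorted against duct cells, 1 for day 13 against undamaged liver and 1 for adult against whole liver. The same setting reversed Abcc2 at day 3 (-0.39), Abcc9 in BAT against WAT (-0.72), and Abca8b (-0.18) and Abcc2 (-1.65) in adult against whole liver. Cy3 signal alone called 2, 17, 0 and 3 in those 4 comparisons, 0 for day 13 against day 3 and 8 for BAT against WAT. Without background correction the count was 1 for hepatocytes against whole liver, 5 for day 3 and 2 for day 13 against day 3, which had 0 without the filter on dim probes. The mean of all probes gave 1 for day 13 and 3 for BAT against WAT. Adjusted p alone gave 6 for day 3, 2 for day 13 against day 3, 14 for BAT against WAT and 9 for adult against whole liver. Slide as a random block gave 2 for hepatocytes against whole liver, and scan day gave 2 there and 1 for day 13. Fits on the groups compared alone gave 0 for Lgr5-sorted against duct cells, 2 for day 13, 5 for day 13 against day 3 and 0 for adult against whole liver. Whole liver alone as undamaged liver gave 6 at day 3 and 7 at day 13. Adult liver alone reversed Abcg8 at day 13 (-0.04), and whole liver in place of adult liver reversed Abcb10 in EM organoids (0.06). Leaving the Lgr5-sorted pair out of the model, an alternative chosen after seeing the data like the one asking that the higher group be above background, gave 1 for hepatocytes against whole liver and 0 for day 13 against day 3. The cause of these changes was not tested.

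Deviations of same-numbered arrays from their group means correlated between -0.19 and 0.44. Duct cells, hepatocytes, whole liver and Lgr5-sorted cells had their replicates 1 on one slide and their replicates 2 on another, and there the correlations ran between 0.05 and 0.44. The labels tie the numbers to no shared animal or day, so the numbers were not taken as pairs. The replicate block gave 2 for hepatocytes against whole liver and 0 for day 13 against day 3. Leaving out 1 array at a time gave 22 to 23 members for EM organoids against adult liver, 9 to 12 for DM against EM, 17 to 19 for DM against adult liver, 21 to 27 for duct cells against hepatocytes and 8 to 14 for EM organoids against duct cells. It gave 2 to 5 for Lgr5-sorted against duct cells, 20 to 22 against whole liver, 0 to 3 for hepatocytes against whole liver and 2 to 7 for adult against whole liver. After CCl4 it gave 2 to 4 at day 3, 0 to 4 at day 13 and 0 between them. For adult liver it gave 21 to 24 against pancreas, 24 to 26 against muscle, 22 to 25 against WAT and 21 to 23 against BAT, and 4 to 9 for BAT against WAT. The DM array could not be left out. Signal over background limits the changes of dim members, which are bounds.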
